A study of Rattus norvegicus with 108 samples.

Results

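The endothelial cells of the ventral dentate gyrus (venDG), which line its blood vessels, were compared between rats that drank fluoxetine and rats that drank water. A venDG cell was taken as endothelial when at least 3 of the genes Cldn5, Flt1, Pecam1, Slco1a4, Itm2a and Abcb1a were detected and at most 1 of Cx3cr1, P2ry12, Csf1r, Rgs5, Pdgfrb, Mog, Mag, Gja1 and Pdgfra was detected, the latter being markers of microglia, mural cells, oligodendrocytes, astrocytes and oligodendrocyte precursors. Of the 6 endothelial genes, 5 were measured, and Slco1a4 was not analysed here. The rule chose 179 of 2058 venDG cells (8.70%), out of 3347 cells in both dentate gyrus regions of the series. Male rats, 2 months old, received fluoxetine at 18 mg/kg in the drinking water (FT) or water alone (Sham) for 6 weeks. Fluoxetine blocks the reuptake of serotonin. Tissue was punched from fresh brains, and each replicate was a pool of tissue from several animals. RNA of single droplets was read with the 10x Genomics 3′ kit, in which each captured RNA molecule carries a unique molecular identifier (UMI). The labels speak of nuclei, the study's methods of suspensions of cells and of nuclei, and neither says which reaction held which.

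Brain endothelial cells form the blood-brain barrier. Tight junctions close the gaps between neighbouring cells, efflux pumps return drugs and toxins to the blood, and dedicated transporters carry glucose, amino acids, fatty acids, hormones and iron into the brain. Wnt signals from the surrounding tissue keep this barrier program on, and few vesicles cross the cells. The same cells express receptors for vascular growth factors, present antigen and attract leukocytes when stimulated, and contain enzymes that break down monoamines such as serotonin.

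The FT replicates held 18, 30, 18, 26 and 8 of the chosen cells, and the Sham replicates held 32, 19, 1, 23 and 4. Gene tests used the 5 FT replicates and the 3 Sham replicates (1, 2 and 4) with at least 5 cells. Summed UMIs of these replicates ranged from 36889 to 140188, with a median of 3098 UMIs and 1624 genes per cell, against 3451 UMIs per cell for the other 1879 venDG cells. Levels are given as UMIs per 10000 UMIs of the summed cells, and 3 UMIs, the limit that a count of 0 allows, corresponded to between 0.214 and 0.813 UMIs per 10000 in the tested replicates. Of the chosen cells, 151 came from the first reaction of their replicate, and 0 shared a barcode with another reaction.

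The genes of the rule were detected as follows. Flt1, a receptor for vascular endothelial growth factor, was detected in 97.2% of them, Itm2a in 170 of the 179 cells, Abcb1a, the drug efflux pump P-glycoprotein, in 79.9%, and Pecam1, an adhesion molecule of endothelial contacts, in 69.3%. These values chose the cells and are a description. In 324 venDG cells with microglia markers, which should lack endothelial RNA and had a median of 4533 UMIs, the shares were 16.4%, 16.7%, 2.16% and 10.5%. The microglia-marked cells were picked for at least 3 of 6 microglia markers and at most 1 endothelial gene of the rule. That choice caps these shares, so they do not measure a background of free RNA. Cldn5, the claudin that seals brain endothelial junctions, was detected in only 11 of the 179 cells (6.15%) and in 0.617% of the microglia-marked cells, so the label rests on the other 4 genes. Exactly 3 endothelial genes were detected in 96 cells, 4 in 81 and 5 in 2.

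Detection of 1 gene of another cell type was common in the chosen cells, and its source was not tested. Of the 179 cells, 90 had 0 of the genes of other types and 89 had 1. The oligodendrocyte genes Mog and Mag were the gene of another type in 31 and 13 cells, the astrocyte connexin Gja1 in 15, the mural genes Rgs5 and Pdgfrb in 10 and 6, and the microglial receptor Csf1r in 8, while P2ry12 was detected in 0. Just outside, 79 cells had 2 endothelial genes, with a median of 3548 UMIs against 2654 in the cells with 3. Another 46 cells had enough endothelial genes but 2 genes of other types, with a median of 5602 UMIs. In the dorsal dentate gyrus (dorDG), where the authors deposited cell type names, the same rule chose 95 of 1289 cells. The authors called 85 of these 95 Endothelial (89.5%), and the rule found 85 of their 180 Endothelial cells (47.2%).

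Beyond the genes of the rule, the chosen cells carried a broad endothelial profile. Because the cells were chosen by their genes, their contrast with other venDG cells is described without a test. Of 3955 genes with enough UMIs, 306 (7.74%) were at least 2-fold higher in the mean and higher in all 8 replicates, and 443 (11.2%) were at most at a ratio of 0.5 and lower in all 8. The highest ratio among genes with at least 2 UMIs per 10000 belonged to the locus RGD1565166, at 2.63 against 0.155 UMIs per 10000, a ratio of 17.0. It was followed by Wfdc1 (13.6), the aldo-keto reductase Akr1cl (12.5) and the LIM domain gene Csrp2 (11.1). Car4, a carbonic anhydrase of the capillary surface, was at 8.45 against 0.773, a ratio of 10.9. Icam2, a ligand for leukocyte integrins, reached the same ratio, and Emcn, the sialomucin endomucin of the vessel lumen, followed at 10.4. Tnfrsf11b, which encodes the decoy receptor osteoprotegerin, was at a ratio of 10.2, Lgals9, which encodes galectin-9, at 10.1 and the adhesion receptor gene Gpr116 at 9.63. Rasip1, needed for vessel lumens, was at a ratio of 9.24, Cyyr1 at 8.96, the BMP target Id1 at 8.62, the glucose transporter Slc2a1 at 8.60 and the scaffold gene Slc9a3r2 at 8.57. Each of these genes was higher in 8 of 8 replicates, and the lowest endothelial replicate lay above the highest replicate of other cells in all 15, as the plot of marker genes shows. The 15 were picked for their high ratios, which favours such a gap, and the share of all genes with it is not given here.

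**Figure D1:**
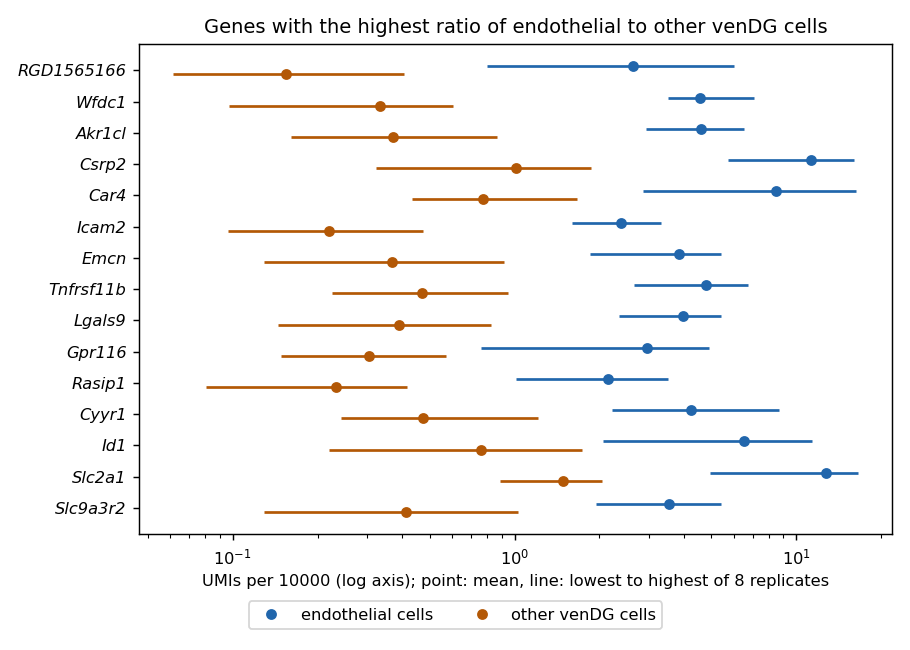
Level of the 15 genes with the highest ratio in the endothelial cells (blue) and in other venDG cells (brown), in UMIs per 10000 on a log axis. Points are means over 8 replicates and lines run from the lowest to the highest replicate. For Wfdc1 the endothelial replicates run from 3.49 to 7.05 and the other cells from 0.0967 to 0.603.

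Transport genes of the barrier were mostly enriched. Of 21 barrier transport genes with enough UMIs, 16 were at least 2-fold higher in all replicates. The median ratio of the 21 was 4.14 against 0.96 over all genes. The list includes Abcb1a, a gene of the rule, whose enrichment follows from the choice of cells. Slc2a1, the main glucose transporter of the barrier, was at 12.8 ± 3.97 UMIs per 10000 (SD, n = 8) and was detected in 83.8% of cells, against 21.9% of the microglia-marked cells. Slco1c1, which carries thyroid hormone, was at 7.60 ± 2.32 and a ratio of 8.11. The efflux pump gene Abcg2 had a ratio of 10.1, the cationic amino acid transporter gene Slc7a1 7.90, the large neutral amino acid transporter gene Slc7a5 5.92 and the transferrin receptor gene Tfrc 4.49. The 34 measured transport genes summed to between 46.9 and 95.7 UMIs per 10000 in the tested replicates, and to between 12.7 and 23.9 in the other cells of the same replicates.

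Junction, Wnt and growth factor genes showed the same enrichment to different degrees. Of 11 junction genes, 7 were at least 2-fold higher, with the adhesion gene Esam at a ratio of 7.63, occludin (Ocln) at 6.06 and the scaffold gene Tjp1 at 2.41. Cdh5, which encodes VE-cadherin, was detected in only 9 cells. Of 7 genes of Wnt signalling and barrier induction, 6 were higher, among them the transcription factor gene Lef1 (7.33) and the receptor gene Fzd6 (7.13). Of 17 growth factor signalling genes, 15 were higher, and the median ratio was 5.64. The junction and growth factor lists include Pecam1 and Flt1, genes of the rule whose enrichment follows from the choice of cells. The angiopoietin receptor genes Tek and Tie1 stood at 7.78 and 7.10, the growth factor receptor gene Kdr at 7.90 and the transcription factor genes Sox17 and Erg at 9.24 and 6.93. Plvap, a marker of leaky, fenestrated vessels, was detected in 1 cell.

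Capillary genes were more enriched than genes of arteries and veins. Of 7 capillary genes, 6 were at least 2-fold higher, with the chemokine gene Cxcl12 at a ratio of 6.61, Spock2 at 5.75 and Mfsd2a, a lipid transporter that restrains vesicle transport, at 3.03. Of the 4 arterial and 4 venous genes with enough UMIs, 1 each was higher, the phosphatase gene Alpl (5.25) and the von Willebrand factor gene Vwf (8.21). Among single cells, 175 of 179 had at least 1 capillary gene detected, 164 at least 1 venous and 123 at least 1 arterial gene, and 116 had both a venous and an arterial gene. Venous and arterial genes were about as abundant in other venDG cells, with FT means of 20.5 and 6.75 UMIs per 10000 summed over each list against 18.3 and 5.94 in the endothelial cells, so their detection in a cell does not tell vessel types apart. The difference between the groups of vessel genes was not tested.

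Monoamine enzymes were a further feature of these cells. The monoamine oxidase gene Maoa was at 2.90 ± 1.20 UMIs per 10000 (SD, n = 8), a ratio of 6.20, and Maob was at 3.85 ± 1.72, a ratio of 5.72. Ddc, whose enzyme makes serotonin and dopamine from their precursors, was at 2.65 ± 0.847 and a ratio of 6.85. By contrast, the serotonin transporter gene Slc6a4, the target of fluoxetine, was detected in 1 of the 179 cells (0.559%), below the 1.23% of the microglia-marked cells. The receptor gene Htr2a was detected in 43.6% of the endothelial and 40.4% of the microglia-marked cells. The microglia-marked cells had more UMIs (median 4533 against 3098), and the source of the Htr2a RNA was not tested. Oxidative phosphorylation genes, which bear on the study's interest in energy metabolism, were at a median ratio of 1.01, with 0 of 71 at least 2-fold higher.

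The first question of the treatment comparison was whether fluoxetine changed the share of endothelial cells. Endothelial cells made up 7.93, 7.81, 5.25, 14.8 and 6.72% of the cells in FT replicates 1 to 5, and 9.67, 10.8, 2.38, 11.4 and 6.78% in Sham replicates 1 to 5. FT replicate 4 was the highest and Sham replicate 3, with 42 cells in all, the lowest, and the groups overlapped. The means were 8.50% ± 3.67 in FT and 8.21% ± 3.72 in Sham (SD, n = 5 each), a difference of 0.284 percentage points (two-sided exact permutation test, p = 0.905, where the smallest possible p is 0.00794). With each cell thinned to 1500 UMIs, which left out 288 FT and 183 Sham cells, the difference was -1.42 percentage points (p = 0.587 by the same exact test).

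**Figure D2:**
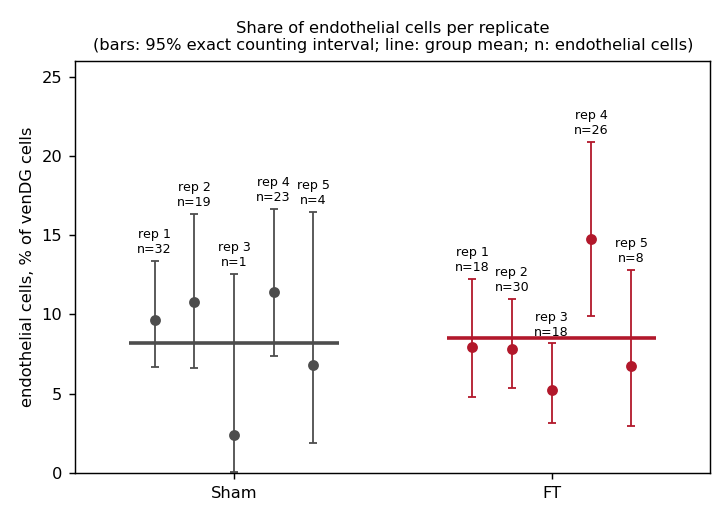
Endothelial cells as a percentage of all venDG cells in each replicate. Points are replicates with exact (Clopper-Pearson) 95% intervals that cover counting error only, horizontal lines are group means and n is the number of endothelial cells. FT replicate 4 stands at 14.8% and Sham replicate 3, with 1 endothelial cell, at 2.38%.

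Across genes, no difference between FT and Sham passed the threshold in the endothelial cells. The edgeR quasi-likelihood test on summed UMIs called 0 of 3605 genes (0.0%) with an adjusted p (Benjamini-Hochberg) up to 0.2 and a log2 fold change of 0.32 or more in size, and the lowest adjusted p was 0.635. At an unadjusted p under 0.05 there were 97 genes (2.69%), 41 higher (1.14%) and 56 lower (1.55%) in FT. DESeq2 called 2 genes and limma 0. In 58 genes (1.61%) the tested replicates of the groups did not overlap. The genes named below as higher or lower were therefore not called in the main edgeR fit, unless stated otherwise, and their unadjusted p-values from that fit are given. In 10 of the 97 genes (10.3%), 1 cell supplied more than 50% of the UMIs of the higher group, against 30 of all 3605 (0.832%), so the largest share of a single cell is given beside the genes it touches.

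The smallest p-values belonged to the metallothioneins Mt1m and Mt2A, small proteins that bind zinc and copper and are induced by metals and glucocorticoids. Mt2A stood at 0.253, 0.642, 2.86, 0.510 and 0.271 UMIs per 10000 in FT replicates 1 to 5, and at 3.49, 5.38 and 6.43 in Sham replicates 1, 2 and 4. Mt1m stood at 0.379, 0.285, 2.06, 0.510 and 0.0 in FT and at 3.15, 4.47 and 5.20 in Sham. The groups did not overlap for either gene, although FT replicate 3 lay close to the lowest Sham replicate. The log2 fold change of FT against Sham was -2.43 ± 0.54 (SE; p = 0.000359, adjusted p = 0.647, edgeR) for Mt2A and -2.66 ± 0.55 (p = 0.000176, adjusted p = 0.635) for Mt1m. In the Sham replicates with 1 and 4 cells both genes had 0 UMIs. Both were called by DESeq2 (adjusted p = 0.0539 and 0.0186), without FT replicate 3, in the fit with a replicate block and in the cells with at least 4 endothelial genes. With no filter on low values edgeR called both as well (adjusted p = 5.28e-06 and 2.05e-06). These genes are near-identical copies, so reads may be split between them.

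Most metallothionein UMIs of the Sham replicates came from 1 cell in each. The cell with the most supplied 35 of 59 UMIs of both genes in Sham replicate 1, 72 of 86 in replicate 2 and 84 of 94 in replicate 4. The corresponding cells of FT replicates 1 to 5 supplied 4 of 5, 5 of 13, 8 of 31, 4 of 8 and 1 of 1. Without the top cell of every replicate, both genes together stood at 2.88, 1.81 and 1.33 UMIs per 10000 in Sham and at 0.132, 0.643, 4.29, 0.533 and 0.0 in FT, and the groups overlapped. The log2 fold change was then -0.85 (p = 0.307, edgeR) for Mt2A and -0.99 (p = 0.214) for Mt1m. At least 1 UMI of either gene was detected in 16 of 100 FT cells and 21 of 79 Sham cells. Each of the 3 Sham cells also carried 1 gene of another cell type (Pdgfra, Gja1 and Mog), as did the top cells of FT replicates 1, 2 and 3 and 89 of all 179 cells. Among the 90 cells with 0 such genes, only FT replicates 1 to 4 and Sham replicates 1, 2 and 4 had at least 5 cells. The fit of these replicates gave log2 fold changes of -0.56 (p = 0.490, edgeR) and -0.62 (p = 0.521). Fits below of the cells with 0 genes of other types used the same replicates. The part of the top metallothionein cells in the difference between rats was not tested beyond these values. The related genes Mt1 and Mt3 had log2 fold changes of -0.28 (p = 0.463) and 0.39 (p = 0.438).

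**Figure D3:**
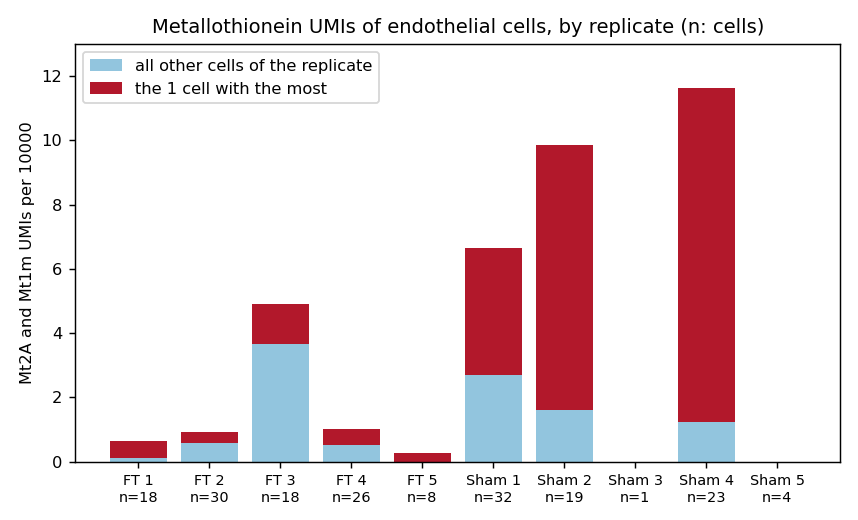
Summed Mt2A and Mt1m UMIs per 10000 in the endothelial cells of each replicate. The red part of each bar is the 1 cell with the most of these UMIs, the blue part all other cells, and n is the number of cells. In Sham replicate 4 that cell supplied 84 of 94 UMIs.

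Among the other genes lower in FT, Apol3 had UMIs spread over more cells. Apol3, an apolipoprotein L gene, stood at 0.632, 0.571, 0.476, 0.765 and 0.813 UMIs per 10000 in FT and at 2.03, 1.83 and 1.98 in Sham. The groups did not overlap, and no single cell supplied more than 6 of the 50 Sham UMIs. Its log2 fold change was -1.54 ± 0.38 (p = 0.000839, edgeR, adjusted p = 1.0), and it lay between -1.78 and -1.22 in 23 alternative settings. The Sham replicates left out of the test stood at 0.0 and 2.90 for Apol3, with 1 and 4 cells.

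Tm4sf1, a tetraspanin-like membrane protein of endothelium, and Btbd11 completed the lower genes. Tm4sf1 stood at 2.28, 3.50, 4.92, 3.19 and 1.08 in FT and at 8.56, 14.7 and 4.70 in Sham (log2 fold change -1.54, p = 0.00227). Here Sham replicate 4 lay within the FT range, 1 cell supplied 81 of the 242 Sham UMIs, and the value was -0.69 (p = 0.104) without the top metallothionein cells. Btbd11 stood at 0.253, 1.14, 0.159, 0.383 and 0.813 in FT and at 4.85, 3.55 and 0.495 in Sham (-2.23, p = 0.00303), with 33 of 78 Sham UMIs in 1 cell, and p was 0.150 in the cells with 0 genes of other types

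Among the higher genes, Phactr2, a regulator of phosphatase and actin, rested on the fewest UMIs. It had 32 UMIs in the FT and 2 in the tested Sham replicates, a ratio of 10.3 with an exact 95% interval of 2.64 to 89.0 that covers counting error only. Its levels were 1.14, 0.927, 0.317, 0.383 and 1.36 in FT and 0.225, 0.0 and 0.0 in Sham, without overlap (p = 0.00228, edgeR). With means of 0.824 in FT and 0.0751 in Sham, Phactr2 passed the filter on low values through the FT replicates, a filter that favours such a difference, and it was tested in 15 of 23 alternatives. Ran, the GTPase of nuclear transport, stood at 2.28, 2.07, 3.49, 2.17 and 1.90 in FT and at 1.13, 1.03 and 1.24 in Sham. Its groups did not overlap, and its log2 fold change of 1.11 ± 0.38 (p = 0.00912) lay between 0.96 and 1.24 in 23 alternatives. Tbc1d4, a Rab GTPase-activating protein of glucose transporter traffic, stood at 3.92, 4.14, 3.17, 3.83 and 6.78 in FT and at 2.37, 2.06 and 2.72 in Sham. These groups did not overlap either, at a log2 fold change of 0.88 ± 0.33 (p = 0.0155), but the value was 0.044 (p = 0.934) in the cells with 0 genes of other types.

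Hemoglobin genes were high in 1 FT replicate alone. Hba1 stood at 383 UMIs per 10000 in FT replicate 2 and at 3.41, 3.49, 4.08 and 1.08 in the other FT replicates, against 2.82, 5.50 and 1.24 in Sham. Hba2 was at 192 in FT replicate 2 and at most 2.63 in the other tested replicates. In both genes the other FT replicates lay within or near the Sham range. Of the 5458 Hba1 UMIs in FT, 3106 came from 1 cell, and the 3 cells with at least 1% hemoglobin UMIs were all from this replicate. The log2 fold changes of 4.98 (p = 0.0124, edgeR) for Hba1 and 4.85 (p = 0.0166) for Hba2 became -0.11 and -0.76 without it. Hbb and Hbb-b1 had the same pattern, at 292 and 65.3 in FT replicate 2, and made hemoglobin and iron the list with the highest median (4.91 over 6 genes, 4 of them at p under 0.05), which became -0.76 without FT replicate 2.

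The barrier, junction and growth factor genes that mark the cells were close to the background of all genes tested, whose median log2 fold change was 0.02. Of 23 barrier transport genes 0 were at p under 0.05 in either direction, and their median was 0.20. Slc2a1 had a log2 fold change of 0.13 ± 0.39 (p = 0.733), Slco1c1 0.20 ± 0.31 (p = 0.529) and Slc3a2, the partner chain of the amino acid transporter, -0.38 ± 0.32 (p = 0.250). Of 12 junction genes, 1 was lower at p under 0.05 and the median was 0.08. That gene, the junctional adhesion molecule Jam2, stood at 0.0, 0.642, 0.635, 0.255 and 0.542 UMIs per 10000 in FT and at 1.13, 1.83 and 0.619 in Sham, with overlap (-1.40, p = 0.0423, edgeR). Jam2 passed the filter on low values through the Sham replicates, a filter that favours such a difference. Of 18 growth factor signalling genes 0 were at p under 0.05 (median 0.17), with Eng, a co-receptor of the TGF-beta family, at 0.20 ± 0.32 (p = 0.547). The transport, junction and growth factor lists each include 1 tested gene by which the cells were chosen, Abcb1a, Pecam1 and Flt1, whose levels are not read as a test. The 9 Wnt and barrier genes had a median of 0.06 and the 7 capillary genes 0.37, with 0 at p under 0.05 in both lists. The 3 arterial and 5 venous genes had medians of 0.55 and 0.21, also with 0. The 15 basement membrane genes had a median of 0.04 and 0 at p under 0.05, with the matrix gene Sparc at 0.20 ± 0.35 (p = 0.574).

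Caveolin was the gene of vesicle transport that differed most. Cav1, the coat protein of caveolae, stood at 2.40, 4.07, 2.38, 2.81 and 3.52 UMIs per 10000 in FT and at 2.03, 0.802 and 1.86 in Sham. The tested groups did not overlap, and the Sham replicates of 1 and 4 cells stood at 3.73 and 2.32. The log2 fold change was 1.04 ± 0.41 (p = 0.0212, edgeR, adjusted p = 1.0), and no cell supplied more than 7 of the 126 FT UMIs. Of the 8 caveolae and transcytosis genes tested, Cav1 was the 1 at p under 0.05, and 7 had a fold change above 0 (median 0.39, against 1880 of 3605 genes above 0). The median fell to 0.07 in the cells with 0 genes of other types. Mfsd2a had a log2 fold change of 0.45 ± 0.43 (p = 0.308).

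Genes of leukocyte adhesion, antigen presentation and interferon response mostly had log2 fold changes below 0, and 1 was lower at p under 0.05. Of 21 tested, 18 had a log2 fold change below 0, against 1725 of all 3605, and the median was -0.47. The 36 measured genes of the list summed to 62.2, 80.7, 97.9, 91.7 and 93.0 UMIs per 10000 in FT and to 102, 105 and 112 in Sham replicates 1, 2 and 4. The tested groups did not overlap, and the Sham replicates of 1 and 4 cells also stood above every FT replicate, at 117 and 123. RT1-A1, a rat class I histocompatibility gene, stood at 3.16, 3.85, 1.11, 1.40 and 5.42 in FT and at 6.42, 9.39 and 2.72 in Sham, with overlap (-1.03 ± 0.47, p = 0.0441, edgeR), and its value was -0.58 (p = 0.293) without Sham replicate 2. The most abundant members differed little, with B2m, the light chain of class I molecules, at -0.10 ± 0.37 (p = 0.790), the interferon-induced gene Ifi27 at -0.17 ± 0.31 (p = 0.604) and the NF-kappaB inhibitor Nfkbia at -0.46 ± 0.34 (p = 0.203). The adhesion molecule Icam1 was at -0.85 ± 0.50 (p = 0.103). The median of the list stayed below 0 in 23 alternative settings, between -0.66 and -0.31.

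Markers of microglia were high in single Sham replicates. The 11 microglia markers summed to between 1.43 and 11.6 UMIs per 10000 in the FT replicates and to 43.7, 4.47 and 6.56 in Sham replicates 1, 2 and 4, and to 3.73 and 82.3 in Sham replicates 3 and 5. Of 6 tested, 2 were lower at p under 0.05, the protease gene Ctss (-1.61, p = 0.0296, edgeR) and Tyrobp (-2.11, p = 0.0181), and the median was -1.19. Ctss stood at 21.5 in Sham replicate 1 and between 0.952 and 4.99 in the other tested replicates. Without Sham replicate 1 the median of the 4 microglia markers then tested was 0.37 and that of the leukocyte and interferon list -0.51. In the cells with 0 genes of other types these medians were -0.10 and -0.49. P2ry12 had 0 UMIs, and Cx3cr1 was detected in 2 cells. Chosen after their values were seen, the chemokine genes Ccl3, Ccl4 and Cxcl2 had log2 fold changes of -1.97, -2.34 and -2.95 (p = 0.00552, 0.0114 and 0.00576), with 11.8, 12.6 and 7.32 UMIs per 10000 in Sham replicate 1 and at most 2.15 in the other tested replicates. Ccl3 also stood at 64.9 in the 4 cells of Sham replicate 5, and between 19.7 and 151 in the microglia-marked cells of all replicates. The part of microglial RNA in the lower levels of the leukocyte and interferon list was not tested beyond these values.

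Glucocorticoid targets, immediate early genes and genes of vessel tone gave single genes at p under 0.05. Among 12 glucocorticoid targets these were the metallothioneins alone (median -0.09), with the phosphatase gene Dusp1 at -0.26 ± 0.32 (p = 0.427). Among 14 immediate early genes it was Zfp36, whose protein promotes decay of inflammatory mRNAs, at 5.69, 6.42, 7.78, 6.63 and 2.71 UMIs per 10000 in FT and 10.8, 11.5 and 12.2 in Sham. The tested groups did not overlap (-0.89 ± 0.33, p = 0.0160, edgeR), and the value was -0.21 (p = 0.557) in the cells with 0 genes of other types. However, the Sham replicates of 1 and 4 cells stood at 3.73 and 2.32, the former within the FT range and the latter below it. Fos, the classical activity gene, was at -0.12 ± 0.40 (p = 0.772), and the median of the list was -0.27, but 0.20 in the cells with at least 4 endothelial genes. Among 8 genes of vessel tone it was Calcrl, a receptor chain for adrenomedullin, at -1.38 (p = 0.0417), which was 0.00302 without Sham replicate 2. Nos3, the endothelial nitric oxide synthase, was at 0.06 ± 0.46 (p = 0.902). The serotonin list held 5 tested genes with 0 at p under 0.05, and Maoa, Maob and Ddc were at 0.02 ± 0.40 (p = 0.959), 0.15 ± 0.39 (p = 0.702) and -0.16 ± 0.38 (p = 0.675).

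**Figure D4:**
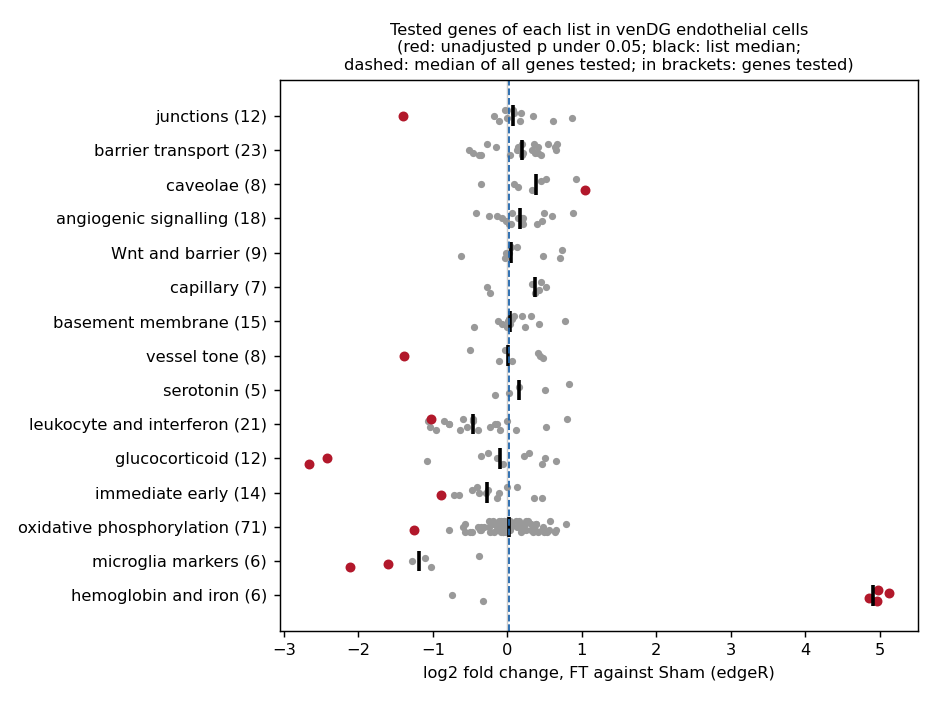
Log2 fold change of FT against Sham for each tested gene of 15 lists. Each point is a gene, red at an unadjusted p under 0.05, black bars are list medians and the dashed line is the median of all 3605 genes, 0.02. Hemoglobin genes at the right rest on FT replicate 2, and the leukocyte and interferon list has 18 of 21 genes below 0.

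Energy metabolism, a question of the study, was compared through UMI shares per replicate. Oxidative phosphorylation genes took 1.49% ± 0.325 of UMIs in FT and 1.45% ± 0.352 in Sham (SD, n = 5 and 3; two-sided exact permutation test, p = 0.893). Mitochondrially encoded genes took 7.45% ± 1.34 and 8.12% ± 1.20 (p = 0.464, exact) and ribosomal protein genes 6.43% ± 1.35 and 6.36% ± 0.802 (p = 0.964, exact). The mean over replicates of median UMIs per cell was 3293 ± 472 in FT and 3224 ± 920 in Sham, and of genes per cell 1764 ± 231 and 1722 ± 435 (p = 0.875 and 0.893, exact). All 5 adjusted p-values were 0.964, and the smallest p the design allows is 0.0357. Among single genes, 1 of 71 oxidative phosphorylation genes (Atp5h, lower) and 1 of 82 ribosomal protein genes (Rplp1, lower) were at p under 0.05, with medians of 0.02 and 0.03. The 13 mitochondrially encoded genes had a median of -0.09 and 0 at p under 0.05. Of 7 energy and translation genes that the study named for other cell types of these libraries, 0 were at p under 0.05 (median 0.17).

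Markers of other cell types in the endothelial sums gave 1 more gene at p under 0.05. Among 6 oligodendrocyte genes it was Mbp, a myelin protein gene, at -0.93 ± 0.40 (p = 0.0325, edgeR), and the median was -0.53. Mbp was at -0.15 (p = 0.682) without Sham replicate 2. The 6 neuronal, 3 astrocyte and 1 choroid plexus genes tested had medians of 0.01, -0.06 and 0.57, with 0 at p under 0.05. Of the markers of precursors of oligodendrocytes, mural cells, fibroblasts and perivascular macrophages, 0 had enough UMIs to be tested.

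Whether a difference was particular to endothelial cells was tested as an interaction of cell class and treatment, with each replicate contributing its endothelial and its other cells. edgeR called 2 of 3605 genes (0.0555%), Mt2A and Mt1m, with 88 at p under 0.05 (2.44%), 50 of them in the positive direction (1.39%). In the other venDG cells alone, FT against Sham gave 0 calls among 4079 genes (0.0%) in edgeR, with 250 at p under 0.05 (6.13%), of which 90 were higher in FT (2.21%). The endothelial difference exceeded that of the other cells by -3.50 ± 0.56 on the log2 scale for Mt2A (adjusted p = 0.0298) and by -3.77 ± 0.65 for Mt1m (adjusted p = 0.0377). In the other cells Mt2A stood between 1.05 and 4.28 UMIs per 10000 in FT and between 0.395 and 2.47 in the same Sham replicates, a log2 fold change of 0.49 ± 0.49 (p = 0.334). Both calls were lost without Sham replicate 1, without Sham replicate 4 and without the top metallothionein cell of each replicate and class, where the values were -2.44 and -2.75 (adjusted p = 1.0, edgeR). Cells with at least 10 UMIs of both genes were 4 of the 179 endothelial and 56 of the 1879 other cells, of which 44 were FT and 12 Sham. Astrocyte markers of the other cells summed to between 12.2 and 34.2 UMIs per 10000 in FT and between 6.26 and 14.0 in Sham, and their part in the result was not tested. Among genes that were not called, Phactr2 (3.52, p = 0.00182), Crip1 (2.62, p = 0.000923) and Cyp3a85-ps (1.90, p = 0.00607) had the smallest p-values in the positive direction. The filter on low values used the endothelial sums, and Phactr2 passed it through the FT replicates, which favours a positive value. Crip1 was 4.14 in FT replicate 2, where 37 UMIs came from 1 cell, and at most 1.28 in the other tested replicates.

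**Figure D5:**
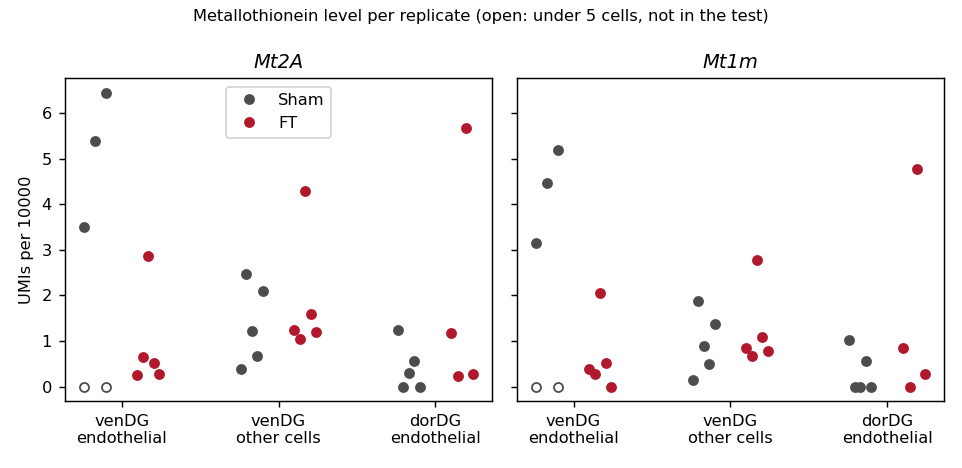
Mt2A and Mt1m in UMIs per 10000 for venDG endothelial cells, other venDG cells and dorDG endothelial cells chosen by the same rule. Each point is a replicate, red for FT and grey for Sham, and open points had under 5 cells. The tested Sham replicates of venDG endothelium lie between 3.49 and 6.43 for Mt2A, and the dorDG Sham replicates between 0.0 and 1.23.

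The same rule in the dorDG allowed a test of whether the treatment difference depended on region, with 4 FT and 5 Sham replicates there. The study punched both regions from the brains of the same treatment groups, so pools of the 2 regions may share animals. The labels do not tie replicate numbers to animals, and the samples were fitted as independent. The interaction called 0 of 3762 genes (0.0%), with 161 at p under 0.05 in edgeR (4.28%), 107 with a higher FT effect in dorDG (2.84%) and 54 with a lower one (1.44%). DESeq2 also called 0 for this interaction, with 107 at p under 0.05. A fit that blocked on replicate number across the regions called 6 genes (edgeR), among them both metallothioneins. The metallothioneins were among the smallest p-values, with a treatment difference larger by 4.12 ± 1.05 on the log2 scale in dorDG for Mt2A (p = 0.000491, edgeR, adjusted p = 0.694). Without the top metallothionein cell of each replicate this Mt2A value was 2.43 ± 1.38 (p = 0.0887, edgeR). In dorDG, Mt2A stood at 1.18, 0.244, 5.67 and 0.286 UMIs per 10000 in FT and at 1.23, 0.0, 0.308, 0.566 and 0.0 in Sham. Those dorDG groups overlapped, and FT replicate 4 alone exceeded the others. Ccl3 and Ccl4 had differences of 5.53 (p = 0.000352) and 5.63 (p = 0.000555), with 1 high replicate in each region, at 77.8 and 42.9 UMIs per 10000 in dorDG FT. The sorting receptor gene Sort1 (-2.38, p = 0.00300), Dhrs7 (-2.81, p = 0.00358) and the interferon-induced kinase gene Eif2ak2 (-4.18, p = 0.00630) had the smallest p-values in the other direction. For the leukocyte and interferon list the medians of FT against Sham were -0.47 over 21 genes in venDG and 0.06 over 20 in dorDG, and the interaction had 5 of 23 genes higher and 1 lower at p under 0.05. Within dorDG, edgeR called 0 of 3896 genes for FT against Sham (0.0%), with 158 at p under 0.05 (4.06%) and 73 of these lower in FT (1.87%). Mt2A was at 1.65 ± 0.76 there (p = 0.0384).

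Within Sham rats, dorDG and venDG endothelial cells differed in 0 of 3762 genes (0.0%) past the threshold, with 147 at p under 0.05 in edgeR (3.91%), 58 of them higher in dorDG (1.54%), and DESeq2 called 0 as well (109 at p under 0.05). The fit blocked on replicate number called 22 genes (edgeR), of which 18 were lower in dorDG. In the lower direction for dorDG, Mt2A (-3.28 ± 0.75, p = 0.000153), Mt1m (-3.32 ± 0.80, p = 0.000283) and Nfkbia (-1.62 ± 0.43, p = 0.000719) had the smallest p-values, the metallothioneins through the same 3 venDG Sham replicates. In the higher direction they were Dhrs7 (1.80, p = 0.00570), Rngtt, an mRNA capping enzyme (2.18, p = 0.00824), and Cttnbp2 (p = 0.00834). Of 22 barrier transport genes, 0 were at p under 0.05 in either direction between the regions, and their median was -0.11. The comparison shares its Sham replicates with those above.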

How the data were processed

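The venDG and dorDG tables deposited by the authors give a raw UMI count for every gene in every cell, made from 10x 3′ v2 libraries with Cell Ranger 2.1.0 (rat build rn5 in the submitters' notes) and filtered and typed with Seurat. Cell type names for dorDG came from the other deposited table, the authors' annotation. Log-normalized venDG values were not used. Groups and replicate numbers came from the labels of 108 libraries. The 170 venDG cells with a second suffix, 167 of which repeat a barcode of the same reaction, were left out, and no doublet caller was run.

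Counts were summed per replicate with at least 5 chosen cells. Genes averaging 0.5 UMIs per 10000 or more entered edgeR 4.0.16 (R 4.3.3, TMM, quasi-likelihood F-test), and DESeq2 1.42.0 and limma 3.58.1 on log2(UMIs per 10000 + 0.01) were alternatives. No pair of replicates agreed within sampling noise (chi-square from 1.80 to 7.86 per degree of freedom). P-values measure the spread between pools of animals. Shares were tested with scipy 1.17.1. Named genes were the genes of the rule, the 15 highest ratios, the 5 smallest p-values in each direction, and of each of the lists the 3 most abundant genes and those at p under 0.05, with 3 each way for interactions and regions. Ccl3, Ccl4 and Cxcl2 in FT against Sham, Mt1 and Mt3, and the examples given for cell description were chosen after their values were seen. The members, lists and tests were chosen with earlier results of these data known.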

Additional observations from a re-analysis of the deposited data

Results flagged for a closer look

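In 17 groups of 4 to 10 replicates tested for a value far from the rest, 7 were found. Chance gives about 1 in 20 for unrelated groups that were not picked by their values. The flagged genes were picked for small p-values. Mt2A and Mt1m were flagged in the same replicate, as were Hba1 and Hba2, so 7 of 17 cannot be read against that rate. The share of endothelial cells in FT replicate 4 was 14.8%, against 5.25 to 7.93% in the other FT replicates. In FT replicate 3, Mt2A was at 2.86, Mt1m at 2.06 and Ran at 3.49 UMIs per 10000, each above the other FT replicates, which reached 0.642, 0.510 and 2.28. In FT replicate 2, Hba1 was at 383 and Hba2 at 192, and in FT replicate 5 Tbc1d4 was at 6.78, against at most 4.14 in the others. The treatment difference in endothelial cells differed from that in other venDG cells by -3.77 on the log2 scale for Mt1m and by -3.50 for Mt2A in the edgeR test of the interaction (adjusted p = 0.0377 and 0.0298).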

How the results depend on the processing

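Apart from the counts below, 0 genes were called for FT against Sham under the other alternatives, limma included. DESeq2, the replicate block and the cells with at least 4 endothelial genes each gave 2 calls, no filter on low values gave 26 (21 of them genes that had passed the filter) and leave-one-out fits gave 0 to 2. Those 26 included Mt2A, Mt1m, Tm4sf1, Btbd11, Phactr2, Hba1, Hba2, Hbb, Hbb-b1, Ctss, Ccl3, Ccl4, Cxcl2, Cxcl11 and Gbp2. The interaction with region gave 2 calls in first reactions and 0 to 2 in leave-one-out fits (2 without venDG FT replicate 3, the metallothioneins), and that with cell class 0 without the top metallothionein cells and 0 to 3 in leave-one-out fits (0 without Sham replicate 1 or 4, 3 without FT replicate 1). The comparison of regions within Sham gave 0 calls in 13 alternatives and 22 with the replicate block over both regions (4 higher, 18 lower in dorDG), and the interaction with region gave 6 with it (5 higher, 1 lower). The difference in endothelial share was -1.24 percentage points in cells of at least 2% ribosomal UMIs, -1.42 when thinned and -1.29 to 1.10 leaving out replicates. The oxidative phosphorylation difference (0.0401 percentage points) was -0.0147 as a mean over cells, -0.0120 in first reactions and -0.00370 with the block, and the ribosomal one (0.0737) was -0.184 in cells of at least 2% ribosomal UMIs, -0.399 in first reactions and -0.642 with the block. Leaving out replicates they ranged from -0.159 to 0.175 and from -0.381 to 0.419. Differences in UMIs (69.0) and genes (42.5) per cell were -48.3 and -30.0 with the block and ranged from -232 to 598 and from -130 to 287. On the log2 scale Hba1, Hba2 and Hbb were at -0.033, -0.20 and -0.51 with 0 genes of other types, Hba2 and Hbb at -0.65 and -1.89 in cells under 1% hemoglobin, and Hbb-b1 at -1.44 by limma. Leaving out replicates, Hba1 ranged from -0.11 to 5.66, Hba2 from -0.76 to 5.32 and Hbb from -1.94 to 5.91, each lowest without FT replicate 2. Calcrl ranged from -1.85 to 0.00302 (without Sham replicate 2) and Ctss from -2.28 to 0.38 (without Sham replicate 1). Apart from the alternatives stated, the cause of these differences was not tested.

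Equal replicate numbers of FT and Sham correlated at 0.0174, 0.295 and 0.355 over 751 genes, against -0.372 to 0.267 for unequal numbers. These few values do not decide whether the numbers are pairs, and the main fit did not pair them. For its bulk tissue the study handled the Sham and FT samples of a replicate in parallel. The replicate block gave 2 calls for FT against Sham, Mt2A and Mt1m, each at an adjusted p of 0.00460 (edgeR). In the main fit their adjusted p-values were 0.647 and 0.635 (edgeR). Between venDG and dorDG, samples of equal number correlated at 0.0216 to 0.430 over 736 genes, with Sham 1 the lowest. Samples of unequal number ran from -0.378 to 0.406, most of them below 0. These ranges overlap and do not decide whether the numbers are pairs. The main fits took the samples as independent, and the block over both regions gave more calls, as stated above. First reactions, the thinned share, the 1% hemoglobin boundary, the removal of top metallothionein cells, the block over both regions, other comparison classes for the class interaction, and the alternatives to the comparison of regions within Sham beyond those planned were chosen after seeing the data. With 8 to 32 cells per tested replicate, the depth limits genes of low level, and no interval here covers more than counting error.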

Other observations

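Markers of other cell types were present at low levels in the chosen cells. Oligodendrocyte markers summed to between 18.6 and 40.8 UMIs per 10000 in the FT replicates and stood at 31.2, 82.8 and 33.5 in Sham replicates 1, 2 and 4, against 73.0 to 264 in other venDG cells of the tested replicates. The myelin gene Mbp alone was at 62.5 in Sham replicate 2 and between 13.9 and 24.0 in the other tested replicates. Neuronal markers stood at 26.7 in FT replicate 1 and between 3.80 and 16.0 in the other tested replicates. Mural, fibroblast and perivascular macrophage markers summed to at most 3.46, 1.03 and 0.542 in every tested replicate.

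The next genes were chosen after their values were seen. Cxcl11, an interferon-induced chemokine gene, had 39 UMIs in the tested Sham replicates, 37 of them in 1 cell of replicate 2, and 3 in FT, an FT to Sham ratio of 0.0497 with an exact 95% counting interval of 0.00983 to 0.156. Gbp2, an interferon-induced GTPase gene, stood at 0.379, 0.428, 0.159, 1.02 and 0.0 UMIs per 10000 in FT and at 1.24, 2.75 and 1.36 in Sham, without overlap, and 12 of its 46 Sham UMIs came from 1 cell. Cxcl11 and Gbp2 passed the filter on low values through the Sham replicates, a filter that favours such a difference. The class I gene RT1-T24-1 stood between 0.476 and 1.36 in FT and at 0.789, 2.86 and 2.97 in Sham, with overlap. None of these genes was called for FT against Sham in the main edgeR test, where their unadjusted p-values were 0.00353, 0.00314 and 0.00311.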
